A study of Mus musculus with 6 samples.

Results

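The SLC25 family is the largest family of transport proteins in the inner mitochondrial membrane, and its messenger RNAs were measured in macrophages grown from the bone marrow of mice. Members were all genes whose symbol is Slc25a followed by a number, which gave 47 of the 55401 genes measured. In L-OHP+FUC, 3 samples received 250 µg/ml fucoidan for 12 h and then 5 µM L-OHP for 12 h. Fucoidan is a polysaccharide from brown algae, rich in fucose and sulfate. In L-OHP, 3 samples received the same drug exposure without fucoidan. L-OHP commonly stands for oxaliplatin, a platinum drug used in chemotherapy. All cells had been cultured for 7 days, and all carried the drug exposure. Cells left untreated, or given only fucoidan, were not analysed here. The labels do not say whether the samples of a group came from separate mice or cultures. The p-values therefore set the group difference only against the variation among these samples, and that variation may be technical.

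The inner mitochondrial membrane is closed to most charged metabolites, and carriers of this family let chosen ones across. Most of them exchange one compound for another, such as ADP entering the matrix for ATP leaving it, or malate for citrate. They thereby join the cytosol to respiration, fatty acid oxidation, amino acid and lipid synthesis, and the making of haem and iron-sulfur clusters. In macrophages, citrate export in particular is known as a source of acetyl groups for lipid synthesis and of precursors for inflammatory mediators.

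The messenger RNAs that rose in L-OHP+FUC were those of Slc25a20, Slc25a39, Slc25a1 and Slc25a33, and those that fell included Slc25a37 and Slc25a36. The remaining 26 of the 33 members that could be compared did not pass the test, among them the 4 most abundant. The share that passed was 21.2% of these 33 members and 27.0% of all genes tested. Only Slc25a20 kept its call whichever library was left out. After a correction for GC content and length, the change of Slc25a36 was weaker and no longer passed. All the differences were under 2-fold on the scale of the test. For a view of the start sites of these genes, RefSeq promoter windows on GRCm38.p6, from 250 bases before to 50 bases after the start, were read for 36 members, in 46 windows. They were searched on both strands for an E-box (CACGTG), the core of the antioxidant response element (TGACNNNGC) and a CCAAT box (CCAAT). Shown are the windows of Slc25a20, which had the smallest p of the family, and of the paralogs Slc25a33 and Slc25a36, of which the first rose and the other fell. Each window is written 5′ to 3′ on the gene's strand, and capitals mark a motif match. They lie at chr9:108661886-108662185 on the plus strand for Slc25a20, at chr4:149774218-149774517 on the minus strand for Slc25a33 and at chr9:97110992-97111291 on the minus strand for Slc25a36.
Slc25a20: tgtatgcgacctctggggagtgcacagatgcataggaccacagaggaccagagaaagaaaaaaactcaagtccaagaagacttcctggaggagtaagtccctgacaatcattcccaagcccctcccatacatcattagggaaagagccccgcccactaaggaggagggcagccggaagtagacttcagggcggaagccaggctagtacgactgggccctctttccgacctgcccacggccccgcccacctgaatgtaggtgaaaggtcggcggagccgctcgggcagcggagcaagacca
Slc25a33: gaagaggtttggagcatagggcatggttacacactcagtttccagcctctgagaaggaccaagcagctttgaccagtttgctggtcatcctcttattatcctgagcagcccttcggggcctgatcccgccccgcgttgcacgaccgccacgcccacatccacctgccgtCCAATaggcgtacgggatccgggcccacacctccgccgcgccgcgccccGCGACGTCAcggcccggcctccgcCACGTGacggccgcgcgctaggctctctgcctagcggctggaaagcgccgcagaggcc
Slc25a36: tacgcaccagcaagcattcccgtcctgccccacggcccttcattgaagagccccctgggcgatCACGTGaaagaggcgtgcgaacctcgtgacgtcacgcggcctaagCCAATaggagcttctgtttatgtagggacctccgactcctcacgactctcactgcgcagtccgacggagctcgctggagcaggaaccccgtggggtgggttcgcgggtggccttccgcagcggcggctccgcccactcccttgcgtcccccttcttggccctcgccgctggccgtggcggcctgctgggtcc

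The Slc25a20 window held none of the 3 motifs. The Slc25a33 window held an E-box beginning 8 bases before the start, an antioxidant response core (GCGACGTCA) 32 bases before it and a CCAAT box 81 bases before it. In Slc25a36 an E-box began 187 bases and a CCAAT box 142 bases before the start, so the pyrimidine nucleotide carriers that moved in opposite directions both had an E-box and a CCAAT box. Slc25a1, which rose, also had an E-box and a CCAAT box, and Slc25a39, which rose too, had none of the 3 motifs. The E-box was found in 8 of the 46 member windows (17.4%) and in 7.15% of all 32851 promoter windows. For the antioxidant response core the share was 26.1% of member windows and 12.4% of all windows, and for the CCAAT box it was 47.8% and 37.4%. Some members had more than 1 window, and the windows with a motif came from 7 members for the E-box, 9 for the antioxidant response core and 19 for the CCAAT box. The differences in share were not tested, and the windows were not matched for GC content or expression. These are matches of letters, and binding was not measured.

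The 47 genes spanned a wide range of expression. In FPKM, a length- and depth-scaled fragment count, 33 members reached the minimum for comparison, 0.5 FPKM in at least 3 of the 6 libraries, and each of these 33 was above it in all 6. Of them, 12 averaged 10 FPKM or more, 16 between 2 and 10 FPKM, and 5 under 2 FPKM. Slc25a5, the main adenine nucleotide translocase of dividing cells, alone gave 23.5%, 25.5% and 24.8% of the family's summed FPKM in L-OHP+FUC and 27.7%, 24.5% and 25.2% in L-OHP. The 5 most abundant members, Slc25a5, Slc25a11, Slc25a3, Slc25a4 and Slc25a1, together made up 56.2% to 57.4% of the sum in L-OHP+FUC and 55.5% to 56.2% in L-OHP. The sum over all members was 504, 499.7 and 498 FPKM in L-OHP+FUC, against 485, 479.6 and 463 FPKM in L-OHP. As a share of all FPKM in the library this was 0.155% to 0.157% in L-OHP+FUC and 0.149% to 0.160% in L-OHP, so the ranges overlapped.

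**Figure D1:**
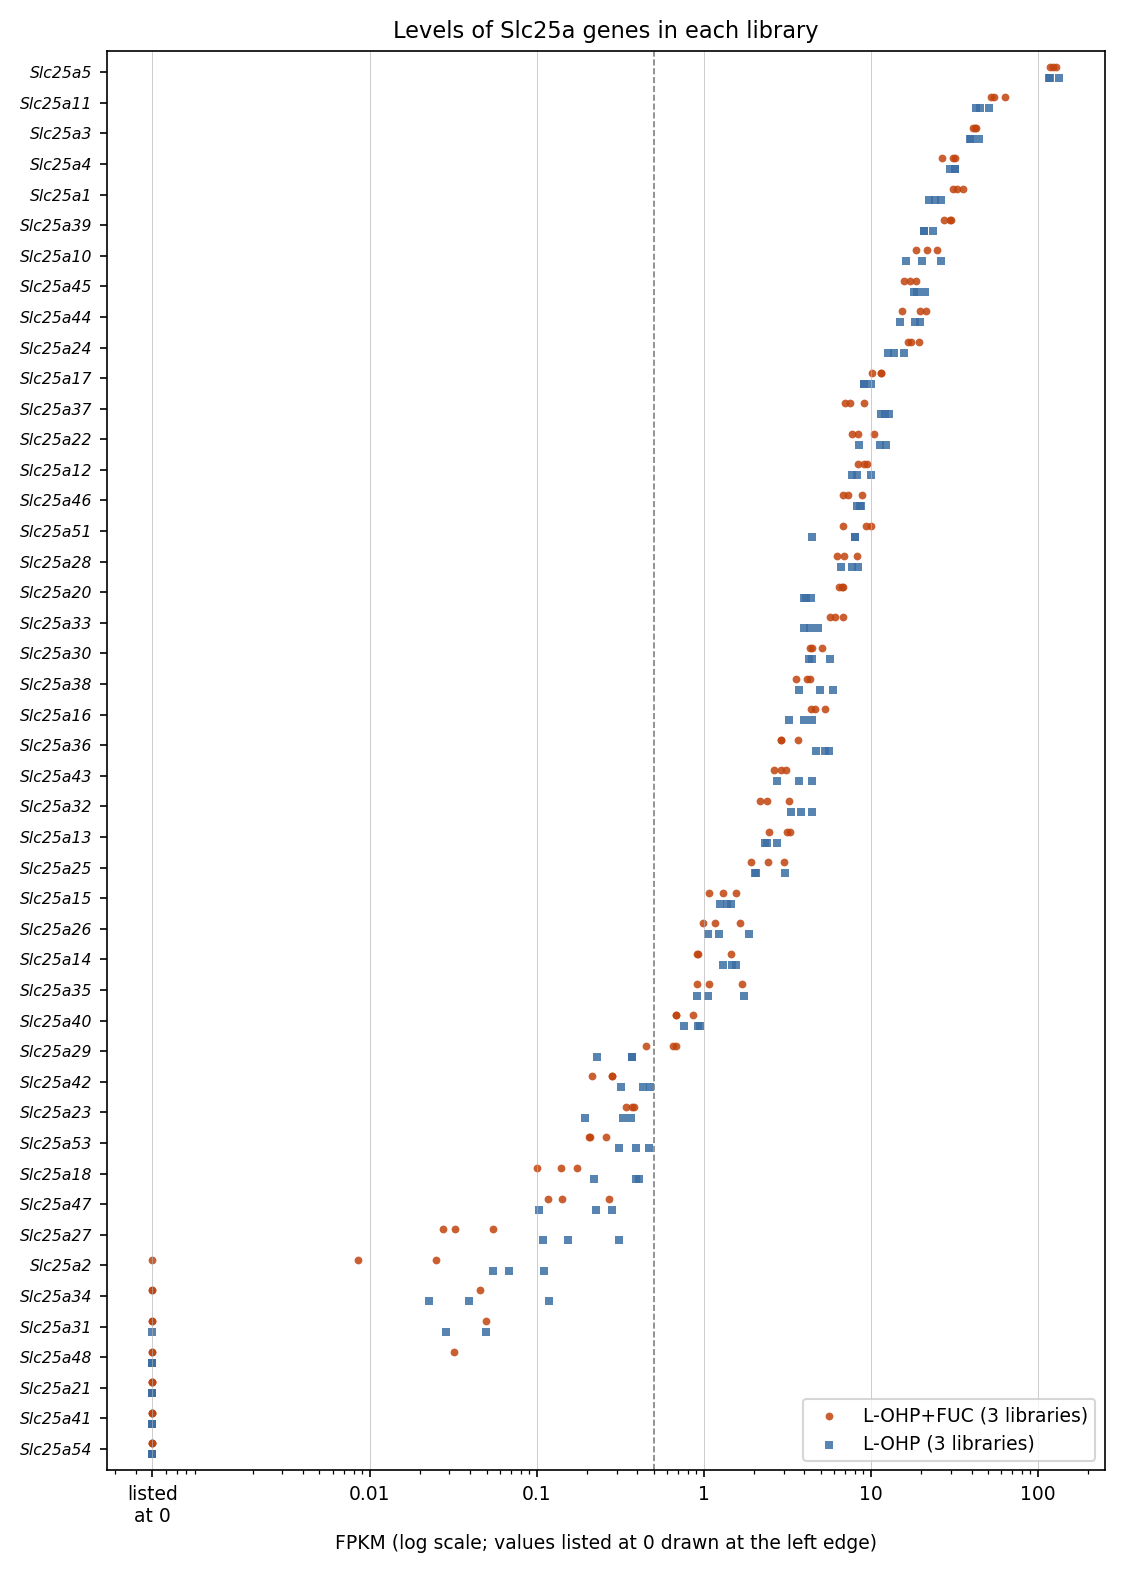
FPKM of the SLC25 genes reported in each library on a log axis, L-OHP+FUC as red circles above and L-OHP as blue squares below in each row, values listed at 0 at the left edge, and a dashed line at 0.5 FPKM. Slc25a5 stands alone at the top with 118 to 127 FPKM in L-OHP+FUC and 116 to 134 FPKM in L-OHP.

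The 14 members that did not reach the minimum were read by level alone. Slc25a21, Slc25a41 and Slc25a54 were listed at 0 in all 6 libraries, and Slc25a2, Slc25a31, Slc25a34 and Slc25a48 in some of them. The other 7, Slc25a18, Slc25a23, Slc25a27, Slc25a29, Slc25a42, Slc25a47 and Slc25a53, had values above 0 in every library but stayed under the minimum in at least 4 of the 6. Just outside the minimum was Slc25a29, a carrier of basic amino acids, with 0.684, 0.450 and 0.656 FPKM in L-OHP+FUC and 0.230, 0.371 and 0.373 FPKM in L-OHP. Just inside was Slc25a40, a paralog of the glutathione carrier Slc25a39, with 0.682, 0.680 and 0.862 FPKM in L-OHP+FUC and 0.950, 0.761 and 0.921 FPKM in L-OHP. Slc25a29 and Slc25a47 lie 162 bases apart on opposite strands of chromosome 12, and averaged 0.461 and 0.190 FPKM over the 6 libraries.

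Differences between the groups were tested with limma on log2(FPKM + 1), with Benjamini-Hochberg adjustment over all 12084 genes tested and a threshold of 0.05. On this scale the change of low genes is understated. By this test 4 of the 33 members were higher in L-OHP+FUC (12.1%, against 7.67% of all genes tested), 3 were lower (9.09%, against 19.3%), and 7 in all passed (21.2%, against 27.0%). The median log2 fold change was -0.01 over the 33 members and -0.10 over all genes tested, with 16 members positive and 17 negative. The median size of the change regardless of sign was 0.21 for the members and 0.26 for all genes tested, and the members ranged from -0.58 to 0.58. Higher to lower was thus 4 to 3, and it was 7 to 2 under median ratio rescaling, quantile normalization, and the correction for GC content and length, which moved the median of all genes to -0.01, 0.03 and 0.01. The balance over all genes tested moved with these settings too. It was 927 higher to 2335 lower in the test as reported, 1390 to 1437 after the correction, 1581 to 1680 with median ratio rescaling and 1565 to 1359 with quantile normalization. Of the 33, 7 had in the authors' deposited table a q-value under 0.05 (22.9% of the 12084 genes tested here had one), and 6 of these 7 also passed here. The exception was Slc25a24, with a q-value of 0.0351 in the authors' deposited table. The authors' own mark of significance was given to 0 of the members.

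**Figure D2:**
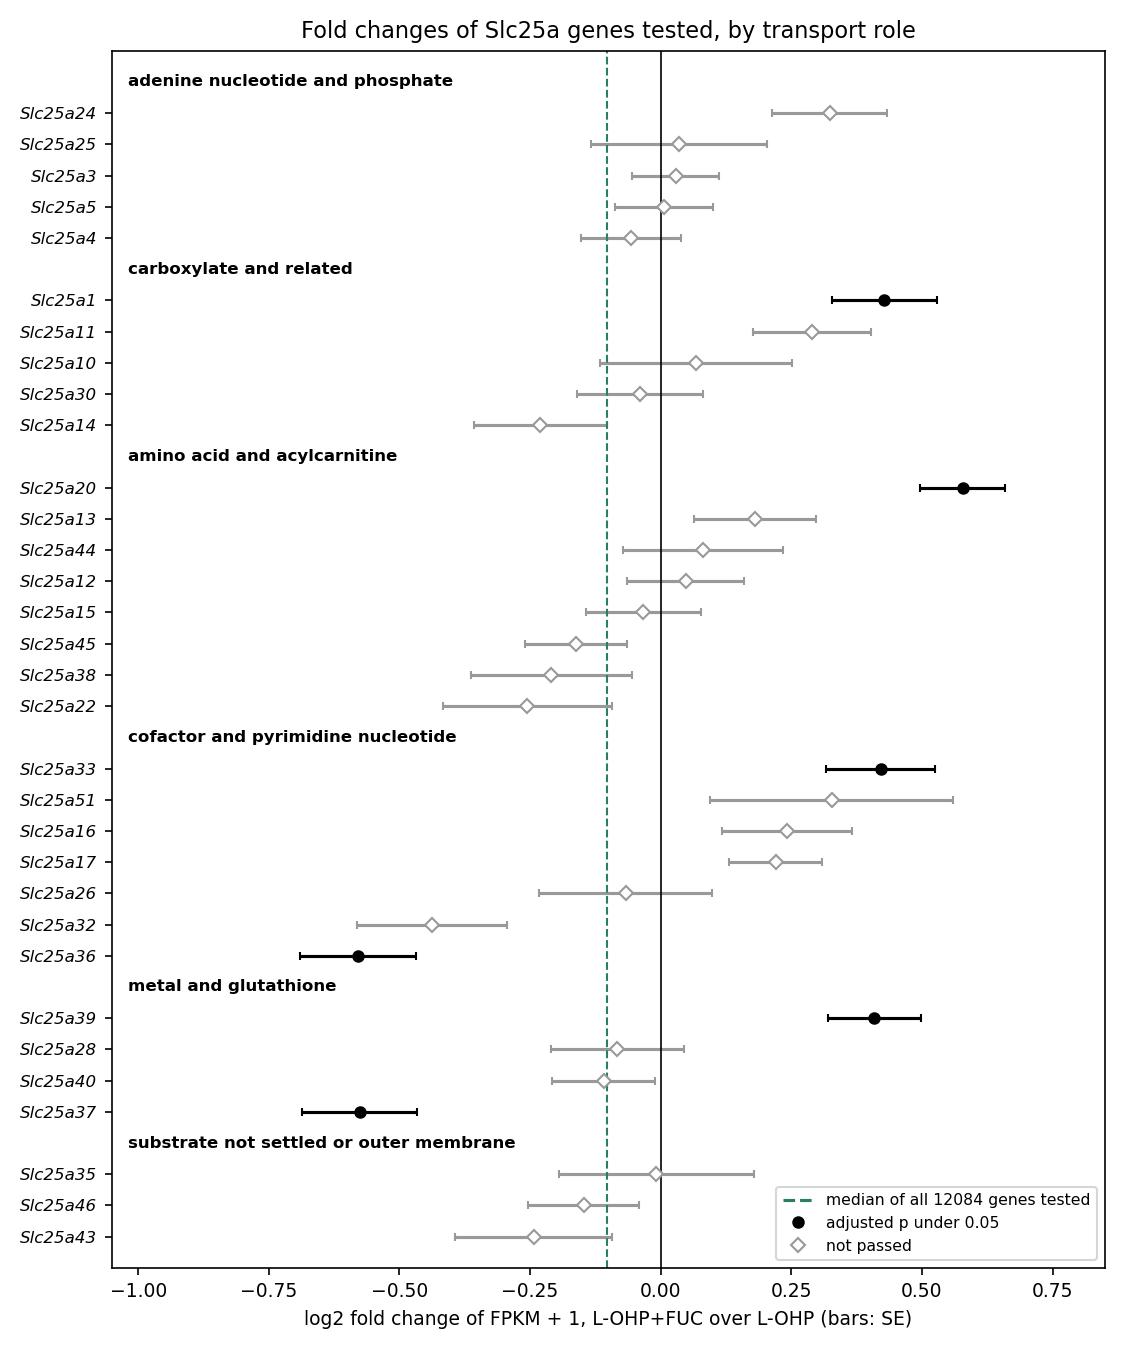
Log2 fold change on the log2(FPKM + 1) scale, L-OHP+FUC over L-OHP, of the compared SLC25 genes by transport role, with SE bars from limma, filled points for adjusted p under 0.05 and a dashed line at the median of all genes tested (-0.10). Filled points lie on both sides of 0 among the cofactor and pyrimidine nucleotide carriers and among the metal and glutathione carriers.

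The 3 L-OHP+FUC libraries lay above all 3 L-OHP libraries for 7 members and below them for 4, so 11 of the 33 had groups that did not overlap, 33.3% of the members against 47.0% of all genes tested. Values above in L-OHP+FUC made up 21.2% of members and 16.1% of all genes tested, and values below made up 12.1% and 30.9%. The trend of FPKM with GC content differed between libraries, with a slope of 0.002 to 0.211 log2 units per 10 points of GC content in L-OHP+FUC and -0.195 to -0.003 in L-OHP. The transcripts of the 4 members that rose had a median GC content of 56.4%, from 48.2% in Slc25a20 to 59.7% in Slc25a39. Those of the 3 members that fell had a median of 48.2%, and the ranges overlapped. For members that did not pass the median was 48.6%, from 39.4% to 60.6%, and over all genes tested it was 49.5%. Values after a correction for GC content and length stand beside each called SLC25 gene named here that it moved by about 1.5 times or more.

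The carnitine and acylcarnitine carrier rose. Slc25a20, which brings fatty acids bound to carnitine into the matrix for oxidation (chromosome 9, 108662088 to 108684641 on mm10), had 6.83, 6.74 and 6.46 FPKM in L-OHP+FUC and 4.06, 4.39 and 3.99 FPKM in L-OHP. The 3 values of each group were separate, and every L-OHP+FUC library was higher. The means were 6.68 ± 0.190 FPKM in L-OHP+FUC and 4.14 ± 0.217 FPKM in L-OHP (SD, n = 3 each), a ratio of 1.61, and the log2 fold change was 0.58 with an SE of 0.08 and a limma adjusted p of 0.00747. Slc25a20 passed the test without each of the 6 libraries in turn, with limma adjusted p between 0.0114 and 0.0394, and under all the other settings tried.

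**Figure D3:**
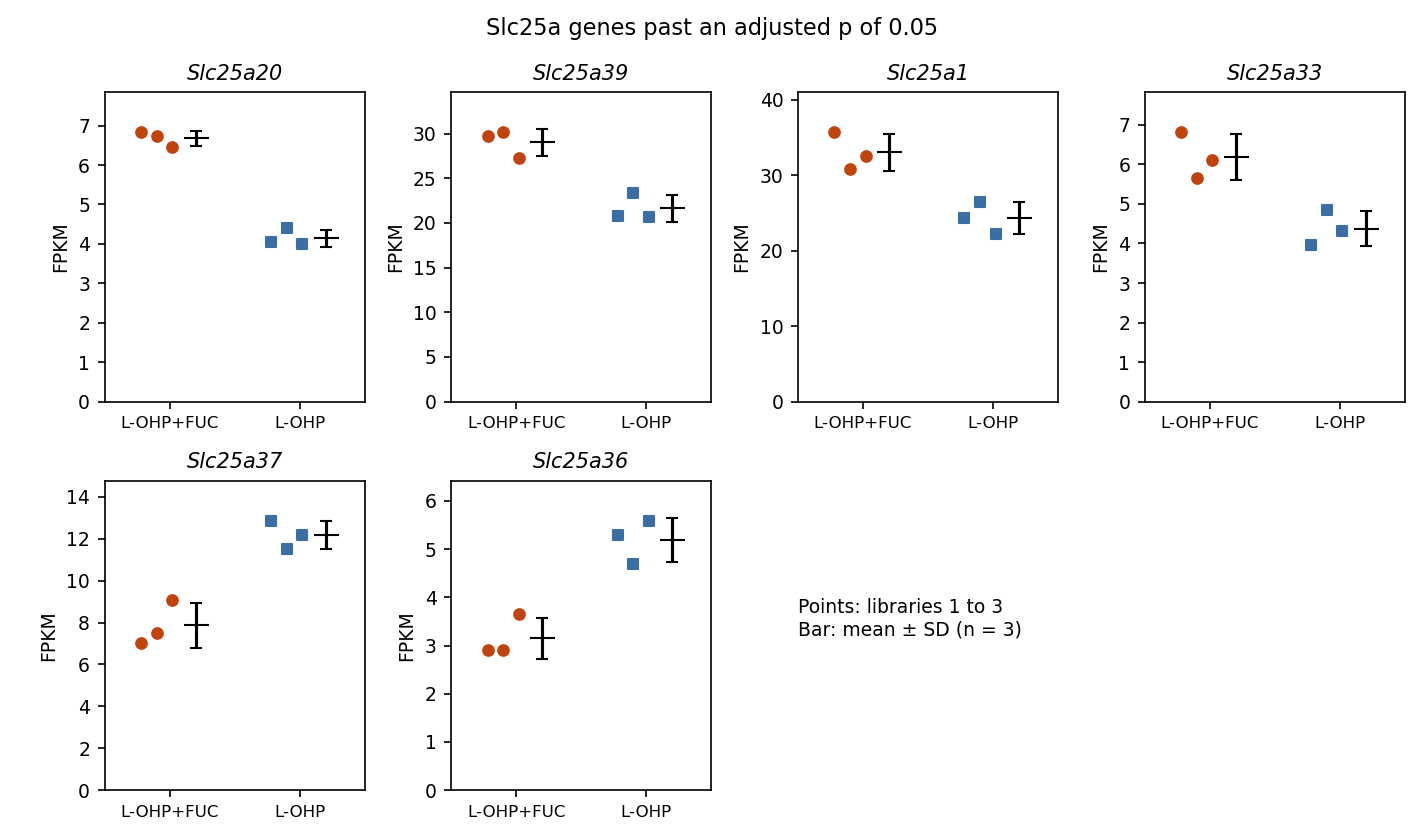
FPKM of 6 SLC25 genes past the threshold, L-OHP+FUC as red circles on the left and L-OHP as blue squares on the right, with mean ± SD (n = 3) as a bar beside the points. In none of the 6 do the groups overlap, and Slc25a20 stands at 6.46 to 6.83 FPKM in L-OHP+FUC and 3.99 to 4.39 FPKM in L-OHP.

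Of the 5 compared carboxylate carriers, 1 rose, 0 fell and 4 did not pass. Over all genes tested, 7.67% were higher and 19.3% were lower. With only 5 genes, 1 call does not describe the carboxylate carriers as a group. Slc25a1, the citrate carrier that exports citrate from the matrix (chromosome 16, 17925223 to 17928219), had 35.7, 30.9 and 32.5 FPKM in L-OHP+FUC and 24.3, 26.4 and 22.1 FPKM in L-OHP. All L-OHP+FUC libraries were above all L-OHP libraries. It averaged 33.0 ± 2.45 FPKM in L-OHP+FUC and 24.3 ± 2.14 FPKM in L-OHP (SD, n = 3 each), with a log2 fold change of 0.43, SE 0.10, limma adjusted p 0.0238. The call was lost without any 1 library other than L-OHP 2 (limma adjusted p 0.0519 to 0.0839), and the log2 fold change was 0.28 after correction for GC content and length, where it still passed. Slc25a11, the oxoglutarate and malate carrier of the malate-aspartate shuttle, had 63.2, 54.5 and 52.0 FPKM in L-OHP+FUC and 45.0, 51.0 and 42.2 FPKM in L-OHP. The groups did not overlap, but the difference of 0.29 (log2, SE 0.11) did not pass (limma adjusted p 0.0990), other than under median ratio rescaling (0.42, limma adjusted p 0.0473). Slc25a10, the dicarboxylate carrier, had 24.8, 21.5 and 18.7 FPKM in L-OHP+FUC and 20.2, 26.2 and 16.2 FPKM in L-OHP, with overlapping groups and a log2 fold change of 0.07 (limma adjusted p 0.809).

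Among the 8 compared carriers of amino acids and acylcarnitine, Slc25a20 rose and the other 7 did not pass (12.5% called, against 27.0% of all genes tested). Slc25a12, an aspartate and glutamate carrier, had 9.10, 8.31 and 9.42 FPKM in L-OHP+FUC and 8.27, 9.98 and 7.71 FPKM in L-OHP (log2 fold change 0.05, limma adjusted p 0.776). Its paralog Slc25a13 had 2.44, 3.14 and 3.28 FPKM in L-OHP+FUC and 2.38, 2.32 and 2.73 FPKM in L-OHP (0.18, limma adjusted p 0.281), and it passed under quantile normalization (0.39, limma adjusted p 0.0335). For both genes the groups overlapped. Slc25a38, the glycine carrier of haem synthesis, averaged 4.02 FPKM in L-OHP+FUC and 4.87 FPKM in L-OHP (limma adjusted p 0.342), and Slc25a22, a glutamate carrier, 8.80 FPKM in L-OHP+FUC and 10.7 FPKM in L-OHP (limma adjusted p 0.273). Slc25a44, a carrier of branched-chain amino acids, averaged 18.8 FPKM in L-OHP+FUC and 17.7 FPKM in L-OHP (limma adjusted p 0.723).

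None of the 5 compared adenine nucleotide and phosphate carriers passed, against 27.0% of all genes tested, and their median log2 fold change was 0.03. Slc25a5 had 118, 127 and 124 FPKM in L-OHP+FUC and 134, 117 and 116 FPKM in L-OHP, and the groups overlapped. It averaged 123 ± 4.52 FPKM in L-OHP+FUC and 123 ± 10.0 FPKM in L-OHP (SD, n = 3 each), a log2 fold change of 0.01 with a 95% interval of -0.22 to 0.23 (limma adjusted p 0.964). Its pseudogene copy in the table, Slc25a5-ps, was listed at 0 except in L-OHP 1, at 0.0162 FPKM. Slc25a4, the translocase of heart and muscle, had 26.8, 31.7 and 31.1 FPKM in L-OHP+FUC and 29.5, 31.9 and 31.8 FPKM in L-OHP, a log2 fold change of -0.06 with an interval of -0.28 to 0.17. Slc25a3, the phosphate carrier, had 42.0, 42.6 and 40.9 FPKM in L-OHP+FUC and 39.6, 39.4 and 44.1 FPKM in L-OHP, a log2 fold change of 0.03 with an interval of -0.17 to 0.23. Slc25a24, a calcium-regulated carrier of ATP-Mg and phosphate, had 16.7, 17.4 and 19.5 FPKM in L-OHP+FUC and 13.7, 12.7 and 15.8 FPKM in L-OHP, with separate groups (log2 fold change 0.32, limma adjusted p 0.0685). Under correction for GC content and length it was 0.54 and passed (limma adjusted p 0.00723), and it also passed under median ratio rescaling (0.0236) and without L-OHP 3 (0.0482).

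Of the 8 compared carriers of cofactors and pyrimidine nucleotides, 1 rose, 2 fell and 5 did not pass. These are 12.5% higher and 25.0% lower, against 7.67% and 19.3% of all genes tested. The pyrimidine nucleotide carriers Slc25a33 and Slc25a36, which supply nucleotides for mitochondrial DNA and RNA synthesis, changed in opposite directions. Slc25a33 (chromosome 4, 149744036 to 149774277) had 6.81, 5.66 and 6.10 FPKM in L-OHP+FUC and 3.96, 4.84 and 4.31 FPKM in L-OHP. It averaged 6.19 ± 0.578 FPKM in L-OHP+FUC and 4.37 ± 0.442 FPKM in L-OHP (SD, n = 3 each), log2 fold change 0.42, SE 0.10, limma adjusted p 0.0290. Its groups did not overlap, and the call was lost with no filter on low values (limma adjusted p 0.0587) and without any 1 library other than L-OHP 2 (0.0596 to 0.0957). Slc25a36 (chromosome 9, 97074961 to 97111157) had 2.90, 2.90 and 3.64 FPKM in L-OHP+FUC and 5.29, 4.69 and 5.58 FPKM in L-OHP, with every L-OHP+FUC library lower. The log2 fold change was -0.58, SE 0.11, limma adjusted p 0.0142. After correction for GC content and length it was -0.22 and no longer passed (limma adjusted p 0.0688), and it was lost without L-OHP 1, L-OHP+FUC 1 or L-OHP+FUC 2 (0.0517 to 0.0597). Slc25a36 transcripts have a GC content of 40.7%, and the gene overlaps Gm16185 on the other strand by 3285 bases, which was at 0.559 FPKM, and the use of strand in counting is not given in the sources used here.

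The ratio of the FPKM of Slc25a33 to that of Slc25a36, a description from 2 genes chosen with their values known, was 2.35, 1.95 and 1.68 in L-OHP+FUC and 0.749, 1.03 and 0.773 in L-OHP. In uncorrected FPKM, the carrier with the higher level was thus Slc25a33 in all 3 L-OHP+FUC libraries. In L-OHP it was Slc25a36 except in L-OHP 2, where they were near equal. Transcript GC content was 53.8% in Slc25a33 and 40.7% in Slc25a36. After the correction for GC content and length, the log2 fold changes were closer, 0.34 for Slc25a33 and -0.22 for Slc25a36, and the latter did not pass. Slc25a32, the carrier of folate and FAD, had 2.18, 2.38 and 3.22 FPKM in L-OHP+FUC and 3.79, 3.34 and 4.43 FPKM in L-OHP, with separate groups that did not pass (log2 fold change -0.44, limma adjusted p 0.0618). It was -0.07 after correction for GC content and length (limma adjusted p 0.565), and it passed without L-OHP+FUC 3 (-0.56, limma adjusted p 0.0331). Slc25a17, the peroxisomal carrier of cofactors such as coenzyme A, had 10.2, 11.4 and 11.5 FPKM in L-OHP+FUC and 9.95, 9.03 and 9.04 FPKM in L-OHP, separate but not past the threshold (log2 fold change 0.22, limma adjusted p 0.108). It passed under the correction (0.36, limma adjusted p 0.0180), median ratio rescaling (0.0313) and quantile normalization (0.0487). Slc25a51, the NAD+ carrier, had 9.94, 6.76 and 9.29 FPKM in L-OHP+FUC and 8.04, 4.42 and 8.05 FPKM in L-OHP, with replicate 2 the lowest in each group (limma adjusted p 0.328).

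In the remaining members the groups overlapped. Slc25a16 averaged 4.74 FPKM in L-OHP+FUC and 3.87 FPKM in L-OHP (log2 fold change 0.24, limma adjusted p 0.184), and it passed under the correction for GC content and length (0.42, limma adjusted p 0.0223) and quantile normalization (0.41, limma adjusted p 0.0453). Slc25a26, the carrier of the methyl donor S-adenosylmethionine, averaged 1.27 FPKM in L-OHP+FUC and 1.38 FPKM in L-OHP (limma adjusted p 0.788). Slc25a46, an outer membrane protein that acts in mitochondrial shape, averaged 7.64 FPKM in L-OHP+FUC and 8.52 FPKM in L-OHP (limma adjusted p 0.331). The other 8, Slc25a14, Slc25a15, Slc25a25, Slc25a30, Slc25a35, Slc25a43, Slc25a45 and the near-minimum Slc25a40, had limma adjusted p between 0.213 and 0.978.

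**Figure D4:**
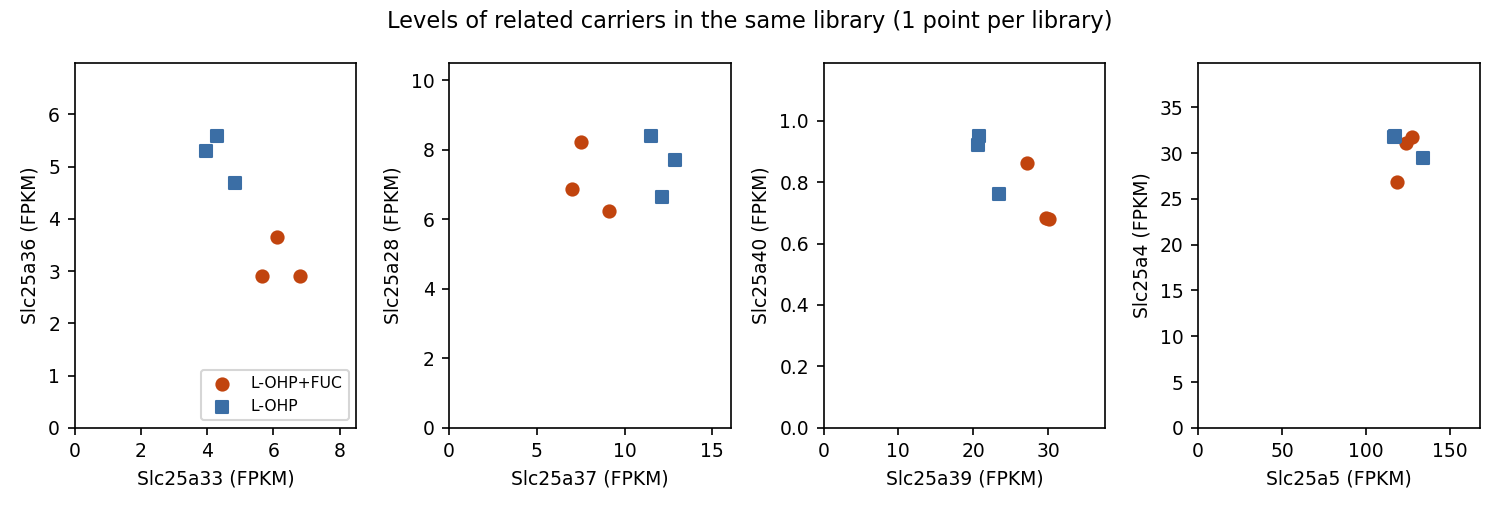
FPKM of 4 pairs of related carriers plotted against each other, with 1 point per library, L-OHP+FUC as red circles and L-OHP as blue squares. In the Slc25a33 and Slc25a36 panel the L-OHP+FUC libraries lie to the right of and below the L-OHP libraries, while in the Slc25a5 and Slc25a4 panel the groups overlap on both axes.

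Among the 4 carriers of metals and glutathione, 1 rose and 1 fell (25.0% each, against 7.67% higher and 19.3% lower over all genes tested). With so few genes per role, 1 call moves these shares widely. Slc25a39, the carrier that brings glutathione into the matrix (chromosome 11, 102402985 to 102407946), had 29.7, 30.1 and 27.3 FPKM in L-OHP+FUC and 20.8, 23.4 and 20.7 FPKM in L-OHP, with every L-OHP+FUC library higher. It averaged 29.0 ± 1.54 FPKM in L-OHP+FUC and 21.6 ± 1.54 FPKM in L-OHP (SD, n = 3 each), log2 fold change 0.41, SE 0.09, limma adjusted p 0.0196. The change was 0.25 after correction for GC content and length, and it was lost without L-OHP 1, L-OHP 3, L-OHP+FUC 1 or L-OHP+FUC 2 (limma adjusted p 0.0515 to 0.0827). Its paralog Slc25a40 did not pass (log2 fold change -0.11, interval -0.34 to 0.13). Slc25a39 transcripts outnumbered those of Slc25a40 per length by 31.6 to 44.3 times in L-OHP+FUC and 21.9 to 30.7 times in L-OHP. These ratios are of uncorrected FPKM, and transcript GC content was 59.7% in Slc25a39 and 39.4% in Slc25a40. After the correction for GC content and length, the log2 fold changes of the paralogs were alike, 0.25 for Slc25a39 and 0.24 for Slc25a40.

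Mitoferrin-1, the carrier that takes iron into the matrix for haem and iron-sulfur clusters, is Slc25a37 (chromosome 14, 69241848 to 69285112). It had 7.03, 7.49 and 9.09 FPKM in L-OHP+FUC and 12.9, 11.5 and 12.2 FPKM in L-OHP, and all L-OHP+FUC libraries were lower. It averaged 7.87 ± 1.08 FPKM in L-OHP+FUC and 12.2 ± 0.666 FPKM in L-OHP (SD, n = 3 each), log2 fold change -0.58, SE 0.11, limma adjusted p 0.0138. The change was -0.38 after correction for GC content and length and still passed, and the call was lost without L-OHP 1, L-OHP+FUC 1 or L-OHP+FUC 2 (limma adjusted p 0.0509 to 0.0596). Slc25a28, mitoferrin-2, had 6.88, 8.22 and 6.23 FPKM in L-OHP+FUC and 7.69, 8.39 and 6.65 FPKM in L-OHP, which overlapped (log2 fold change -0.08, interval -0.38 to 0.22). Slc25a37 is known for its role in developing red cells, and erythroid markers were read beside it. Of the 6 erythroid markers, 0 reached the minimum of 0.5 FPKM in 3 libraries, and together they summed to 0.515 to 1.24 FPKM in L-OHP+FUC and 0.445 to 0.545 FPKM in L-OHP. As in all bulk samples, fewer cells of a type and less RNA per cell cannot be told apart.

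Other cell type markers are as follows. All 8 macrophage markers were above 0.5 FPKM, and they summed to 13573.9 to 14558.8 FPKM in L-OHP+FUC and 12603.4 to 17957.3 FPKM in L-OHP. Most of this sum was Lyz2, and single markers moved apart, with Csf1r higher (log2 fold change 0.47, limma adjusted p 0.0233) and Fcgr1 (-0.69, limma adjusted p 0.0268) and Mertk (-0.74, limma adjusted p 0.00432) lower in L-OHP+FUC. Their part in the results was not tested. Of 7 neutrophil markers, 2 reached the minimum, Ly6g was listed at 0, and the sum was 5.45 to 6.35 FPKM in L-OHP+FUC and 3.79 to 4.26 FPKM in L-OHP, separate between groups, and their part in the results was not tested. Of 4 T cell markers 3 were listed at 0, likewise 3 of 4 mast cell markers, and 0 of 4 B cell markers reached the minimum. The fibroblast markers summed to 6.10 to 6.39 FPKM in L-OHP+FUC and 4.33 to 10.2 FPKM in L-OHP. No library shared an identical profile with another, and the implied depth was 15.7 to 18.4 M (mega) fragments in L-OHP+FUC and 16.4 to 18.6 M fragments in L-OHP.

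**Figure D5:**
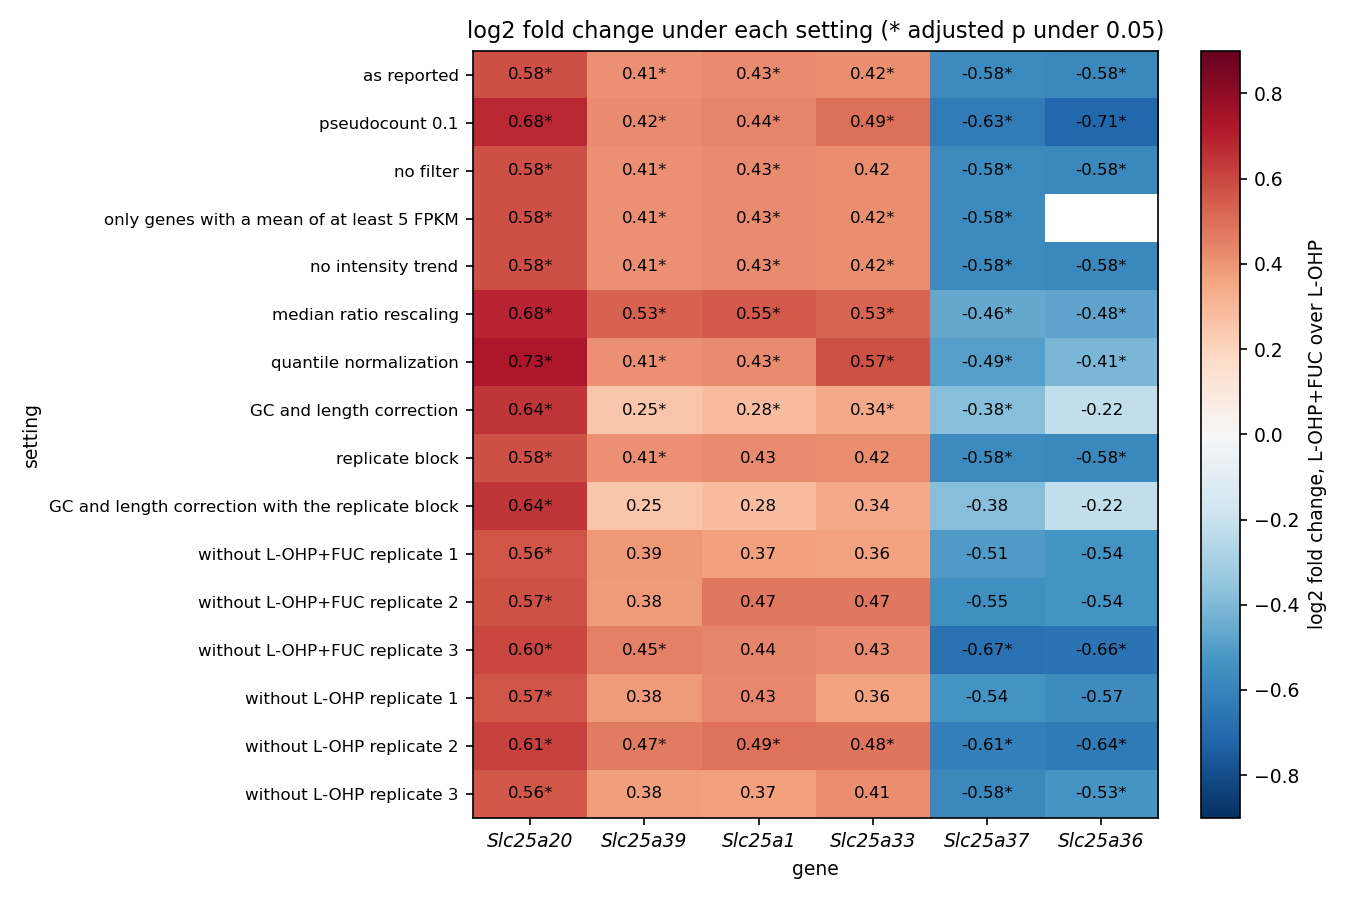
Log2 fold change, L-OHP+FUC over L-OHP, of 6 SLC25 genes past the threshold (columns) under each processing setting (rows), as colour and number, with a star where limma's adjusted p was under 0.05 and blank cells where a gene was not tested. Slc25a20 carries a star in every row, from 0.56 to 0.73, and each of the other 5 genes lacks it in at least 1 row.

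In related lists, the uncoupling protein Ucp2, which belongs to the same structural family without an Slc25a symbol, had 66.3, 54.8 and 55.8 FPKM in L-OHP+FUC and 34.1, 31.2 and 41.8 FPKM in L-OHP, a log2 fold change of 0.71 (SE 0.13, limma adjusted p 0.0135). It rose, with separate groups, and lost its call only without L-OHP+FUC 1 (limma adjusted p 0.0502) among the settings. Of 13 genes for the import of carriers into the inner membrane, 0 rose and 2 fell (15.4% lower, against 19.3% of all genes tested). These 2 encode small chaperones of the space between the membranes. Timm9 had 0.759, 0.605 and 0.849 FPKM in L-OHP+FUC and 1.91, 1.20 and 1.69 FPKM in L-OHP (limma adjusted p 0.0225). Timm10b averaged 3.62 ± 0.200 FPKM in L-OHP+FUC and 5.20 ± 0.818 FPKM in L-OHP (SD, n = 3 each, limma adjusted p 0.0408), and it kept its call without L-OHP 3 alone among the libraries left out. Timm10b also lost it under the correction for GC content and length (limma adjusted p 0.0864), median ratio rescaling (0.0903), quantile normalization (-0.245 on the log2 scale, 0.179) and no filter (0.0842). Timm9 lost the call without L-OHP 1, L-OHP 3, L-OHP+FUC 1 or L-OHP+FUC 2, with no filter (limma adjusted p 0.0678) and under quantile normalization (-0.34 on the log2 scale, 0.0933), and its log2 fold change was -1.01 with a pseudocount of 0.1. Of 18 other inner membrane transporters and their regulators, 2 rose, 1 fell and 15 did not pass. These are 11.1% higher and 5.56% lower, against 7.67% and 19.3% of all genes tested. The count of those higher and lower was 6 and 1 under the correction for GC content and length, 5 and 0 under median ratio rescaling, and 5 and 1 under quantile normalization. Over all genes these settings gave, in the same order, 1390 and 1437, 1581 and 1680, and 1565 and 1359. Mcub, a subunit of the calcium uniporter that lowers its activity, averaged 22.0 ± 1.84 FPKM in L-OHP+FUC and 16.2 ± 1.49 FPKM in L-OHP (SD, n = 3 each, log2 fold change 0.42, limma adjusted p 0.0281). Slc8b1, the sodium-calcium exchanger that lets calcium out of the matrix, averaged 37.0 ± 1.85 FPKM in L-OHP+FUC and 46.7 ± 2.10 FPKM in L-OHP (SD, n = 3 each, -0.33, limma adjusted p 0.0299). Mcub lost its call without L-OHP 3, L-OHP+FUC 1 or L-OHP+FUC 2 (limma adjusted p 0.0701 to 0.0986) and with no filter (0.0526). Slc8b1 kept its call without L-OHP 2 alone among the libraries left out (0.0535 to 0.108 without the others). It lost the call under median ratio rescaling too (-0.20, limma adjusted p 0.142). Slc8b1 was at -0.48 after correction for GC content and length. The pyruvate carrier subunits Mpc1 and Mpc2 did not pass (limma adjusted p 0.249 and 0.545). Of the outer membrane channels, Vdac3 rose with means of 21.3 ± 0.399 FPKM in L-OHP+FUC and 13.9 ± 1.18 FPKM in L-OHP (log2 fold change 0.59, limma adjusted p 0.00834, passing under all settings and 0.935 after correction for GC content and length), and the others did not pass. Vdac1 averaged 54.2 FPKM in L-OHP+FUC and 44.5 FPKM in L-OHP (limma adjusted p 0.0585), and Vdac2 averaged 49.3 FPKM in L-OHP+FUC and 49.8 FPKM in L-OHP (limma adjusted p 0.905).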

How the data were processed

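After removal of ribosomal RNA, total RNA from 3 L-OHP+FUC and 3 L-OHP samples of mouse macrophages was sequenced, and the treatment label set the group. The submitters' processing notes name bcl2fastq 2.0, HISAT2, StringTie, DESeq2, limma and mm10 but no roles for them. How fragments were counted, whether strand was used and which annotation served is not given in the sources used here. The table deposited by the authors holds FPKM values, and its stand-in for an empty value, 0.0001, was returned to 0 before any step. The authors' fold column, headed fc, equalled the ratio of mean FPKM of L-OHP+FUC to L-OHP within 1%. This was checked by calculation and held in all 15461 rows with all 6 values above 0. The column headed log2(fc) was read as the authors' log2 of it. The authors also deposited a p-value and q-value for each gene, from a tool that is not named. A gene at exactly 0 is called listed at 0, because the estimate may have failed.

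The 12084 genes that reached 0.5 FPKM in 3 or more libraries were tested with limma 3.58.1 (R 4.3.3) on log2(FPKM + 1), in a two-sided comparison of the groups with an intensity trend, and p-values were adjusted over all of them by Benjamini-Hochberg, at 0.05. The FPKM hold no read counts: steps between low values came out whole, within 0.03 reads, for at most 36.5% of them, hence no count test or counting interval was made, and the implied depth of 15.7 to 18.6 M (mega) fragments is an estimate. Named with full values were all members past the threshold, the 5 with the highest mean, and 12 carriers of well-known substrates; other members are given by level. Values of 1 member past the threshold and of 2 genes of the other lists are not reported here, though all counts include them. The members, the role groups and the other lists were chosen with earlier results of these data known. Coordinates and GC content came from GENCODE M21, matched by gene ID for 99.5% of rows. The correction for GC content and length subtracted a loess trend (span 0.3) from each library. Alternatives were no filter, a pseudocount of 0.1, only genes averaging 5 FPKM or more, no intensity trend, a block for the replicate number, quantile normalization, median ratio rescaling, and each library left out. The code was tested on simulated data.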

Additional observations from a re-analysis of the deposited data

How the results depend on the processing

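With 4 SLC25 genes higher and 3 lower in L-OHP+FUC, the higher count was 7 under the correction for GC content and length, median ratio rescaling and quantile normalization, and 1 to 4 with 1 library left out, where the higher calls over all genes were 266 to 1121 against 927 as reported; the lower count was 1 under that correction with the replicate block and with a mean of at least 5 FPKM (19 members tested), and 0 to 3 with 1 library left out. The median log2 fold change was 0.10 under the correction, with or without the block, 0.068 with a mean of at least 5 FPKM, 0.067 under median ratio rescaling, 0.11 under quantile normalization, and -0.059 to 0.022 with 1 library left out. Same-numbered samples did not deviate together (correlations of -0.037, -0.071 and 0.083), so the numbers are not taken as pairs; with the replicate number as a block 2 members were higher (Slc25a20, Slc25a39) and 3 lower (Slc25a32, Slc25a36, Slc25a37), so Slc25a1 and Slc25a33 lost their calls (limma adjusted p 0.0559 and 0.0716), and over all genes 554 were higher and 1762 lower. In the related lists, Timm10b and Slc8b1 lost their calls with the block alone (limma adjusted p 0.0541 and 0.0615). With the block and the correction together, Slc25a39, Slc25a1, Slc25a33, Slc25a37 and Slc25a36 did not pass, while Slc25a16 and Slc25a24 did. Without L-OHP 1, L-OHP+FUC 1 or L-OHP+FUC 2, the 1 call left was Slc25a20. Among members named by rule, the sign turned, in no case past the threshold, for Slc25a10 (-0.11 under the correction with and without the block, -0.092 to 0.239 with 1 library left out, lowest without L-OHP 3, and -0.03 without L-OHP+FUC 1), Slc25a4 (0.067 under median ratio rescaling, and -0.101 to 0.017 with 1 library left out, highest without L-OHP+FUC 1), Slc25a28 (0.029 under median ratio rescaling, 0.04 under quantile normalization), Slc25a5 (-0.045 under quantile normalization, and -0.029 to 0.073 with 1 library left out, below 0 without L-OHP+FUC 2, L-OHP 2 or L-OHP 3) and Slc25a12 (-0.022 to 0.145 with 1 library left out, below 0 without L-OHP 3). It also turned, again never past the threshold, for 9 other members, Slc25a14, Slc25a15, Slc25a25, Slc25a26, Slc25a30, Slc25a35, Slc25a40, Slc25a44 and Slc25a46, in at least 1 setting, such as 0.24 for Slc25a40 and 0.17 for Slc25a46 under the correction. The cause was not tested. A pseudocount of 0.1 and no intensity trend called the same 7 genes.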
